A study of Mus musculus with 6 samples.

Results

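Cx3cl1 (fractalkine) and Cx3cr1, its receptor, were followed across the deprived and non-deprived visual cortex of adult mice. They were taken as every probe set whose platform gene symbol is one of these names. That gave 3 probe sets of 12488: 98008_at and 161752_r_at for Cx3cl1 and 95335_at for Cx3cr1, which are 2 genes of 8252 with a probe set of 1 symbol. A probe set is a group of short oligonucleotides that together report one transcript. All 3 lay in the brightest 60% of probe sets and entered the fit across the array.

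The animals were 4 wild-type C57Bl6 mice with one eye removed on postnatal day 100 and killed 4 days later. Deprived cortex is the hemisphere opposite the lost eye (3 arrays), and non-deprived cortex is the hemisphere on its own side (3 arrays), so both groups come from operated animals and neither is from an intact mouse. The design text calls the samples pooled. The size of a pool and the independence of the 3 arrays of a group are not given in the sources used here, so the p-values reflect the spread among arrays, part or all of which may be technical.

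Fractalkine is a chemokine that neurons make as a membrane protein, with the chemokine domain held on a mucin-like stalk, and that proteases can cut free. Its receptor, Cx3cr1, is a G protein-coupled receptor that in brain tissue is made by microglia, the resident immune cells. The pair carries a signal from neurons to microglia and is known for its part in microglial movement and in the handling of synapses.

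Signals are in MAS5 units, an arbitrary linear scale. Array medians ran from 202.8 to 219.7, and pairs of arrays correlated across tested probe sets at 0.948 to 0.958 within groups and 0.945 to 0.961 between groups. Non-deprived replicate 3 differed in a control, with 2689 units on the 3′ probe set of 18S ribosomal RNA against 661 to 981 on the remaining 5 arrays. Without that array the log2 changes given below were -0.38 for the bright Cx3cl1 probe set, -2.23 for the dim one and -0.23 for Cx3cr1.

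The sequence just upstream of each annotated start site is shown because the results turn on these genes. The 250 bases before the start are from RefSeq (GRCm38.p6), at chr8:94771930-94772179 on the + strand for Cx3cl1 and chr9:120068297-120068546 on the - strand for Cx3cr1, printed 5′ to 3′ on the strand of the gene. Capitals mark every match to the motifs searched.
Cx3cl1: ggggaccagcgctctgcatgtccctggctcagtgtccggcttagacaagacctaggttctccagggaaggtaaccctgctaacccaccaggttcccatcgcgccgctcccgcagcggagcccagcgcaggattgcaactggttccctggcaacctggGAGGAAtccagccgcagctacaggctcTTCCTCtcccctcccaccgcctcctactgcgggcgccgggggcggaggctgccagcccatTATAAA
Cx3cr1: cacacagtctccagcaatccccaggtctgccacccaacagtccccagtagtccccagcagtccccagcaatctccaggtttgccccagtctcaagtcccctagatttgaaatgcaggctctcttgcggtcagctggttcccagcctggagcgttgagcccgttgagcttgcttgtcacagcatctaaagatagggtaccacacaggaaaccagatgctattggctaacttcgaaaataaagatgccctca

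The Cx3cl1 stretch held 64.8% G and C, more than 82.3% of 32841 such windows, and the Cx3cr1 stretch 53.6%, near their median of 52.4%. The motifs were the TATA box TATAAA on the gene's strand and, on both strands, the CRE core TGACG, the CRE palindrome TGACGTCA (which contains the core), the AP-1 site TGANTCA, the Egr site GCGNGGGCG, the PU.1 core GAGGAA, the SRF CArG box and the NF-kB site. Cx3cl1 held TATAAA, which 7.59% of windows hold, directly before the annotated start. It also held GAGGAA on each strand. A match to GAGGAA on either strand or both is in 23.26% of windows, and the share with both was not counted. The Cx3cr1 window held none of the letters searched. The CRE core stands in 17.77% of windows, the CRE palindrome in 1.55%, AP-1 in 6.75%, Egr in 4.70%, the CArG box in 1.47% and NF-kB in 3.90%, and none of these letters is in either window.

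The comparison asks whether the ligand and its receptor differ between the hemisphere deprived of most of its visual drive and the other one. The genes were selected on this same contrast, above all on the difference of the dim Cx3cl1 probe set. Their values are therefore a description, given with errors and without p-values. Both Cx3cl1 probe sets read lower on every deprived array than on any non-deprived array, by 21.7% on the bright one and 84.5% on the dim one. Cx3cr1 had a lower mean in deprived cortex, by 18.5%, with overlapping groups.

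On the bright Cx3cl1 probe set, 98008_at, the non-deprived arrays read 14208.6, 13971.6 and 13445 (replicates 1 to 3) and the deprived arrays 9775.2, 11610.2 and 11195.1. The non-deprived arrays lay close together and all above the deprived ones; deprived replicate 1 was the lowest. The means were 13875 ± 391 and 10860.2 ± 962 (SD, n = 3 each), a difference of -3015 signal units. On the log2(signal + 16) scale, in which 16 is added to damp the noise of low signals, the change was -0.36 (SE 0.08; deprived minus non-deprived throughout).

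The signal of this probe set was above that of 99.5% of the non-control probe sets. Brightness depends on each probe set's own oligonucleotides and does not rank transcripts by amount. Very bright probe sets varied little: the median SE of the log2 change was 0.08 among the 48 tested probe sets whose mean signal lay within 1.2-fold of it. It had the lowest change of those 48, which is a description because Cx3cl1 was selected on this contrast. The next lowest was -0.20, for Ly6e, and the median was -0.04.

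On the dim Cx3cl1 probe set, 161752_r_at, the non-deprived arrays read 328.4, 236.5 and 345.8 and the deprived arrays 47.1, 55.5 and 38.7. The lowest non-deprived array stood 4.26-fold above the highest deprived one. The means were 304 ± 58.7 and 47.1 ± 8.40 (SD, n = 3 each), a difference of -256 signal units and a ratio of 6.45 on the linear scale. The log2(signal + 16) change was -2.33 (SE 0.34), the lowest of the 7453 tested on that scale. With a pseudocount of 64 it was -1.72 and Fos stood lower, at -1.98.

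No other tested probe set had a gap between the groups that large in the direction of a fall. Within 1.2-fold of its mean signal of 175.3 lay 986 tested probe sets, of which the next lowest, for Prpsap1, had a change of -1.40. The SE of the dim Cx3cl1 probe set was close to the median of that window, 0.32.

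Several facts limit the dim reading. It was picked for this difference, so its rank and its gap are a description. Its mean over all arrays was not far above the 134.7 that the filter required. Its deprived mean, 47.1, lay under that value, so the probe set passed the filter through its non-deprived signal. The deprived mean stood above only 19.7% of probe sets on the deprived arrays. The probe set is thus not shown to be above background there, and the size of the difference is uncertain. The _r in its name marks a set designed with fewer constraints on its oligonucleotides. The platform table lists a sequence accession for the bright probe set and none for the dim one, as for 1083 of the 10855 probe sets with 1 symbol. Whether it reports Cx3cl1, and if so which stretch of its transcript, was not tested; its Cx3cl1 name rests on the platform table alone.

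The 2 probe sets named Cx3cl1 thus had the same direction and differed in size, with log2 changes of -0.36 and -2.33. The order of the arrays within a group also differed: among deprived arrays replicate 1 was lowest on the bright probe set and replicate 3 on the dim one, and among non-deprived arrays replicate 3 was lowest on the bright one and replicate 2 on the dim one. For scale, 342 of 7453 tested probe sets (4.59%) were lower on all deprived arrays than on any non-deprived array, out of 10.1% separate in either direction, among them 13 of 388 _r probe sets (3.35%). Passing limma at an adjusted p under 0.05 was rarer, 0.161% in the lower and 0.0134% in the higher direction.

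**Figure D1:**
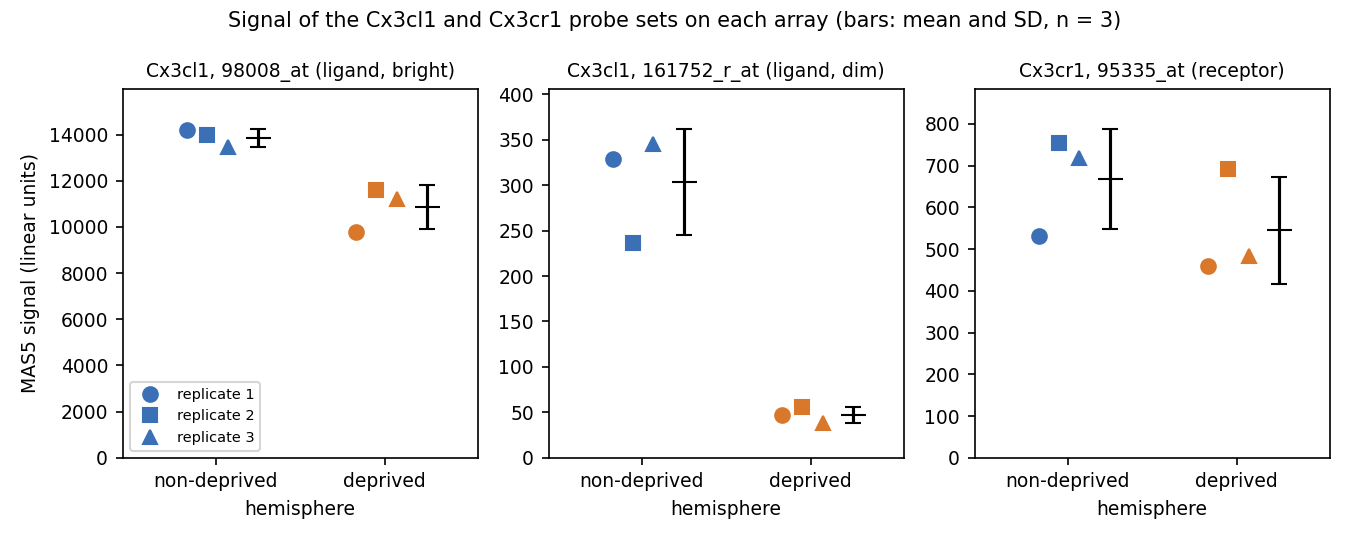
MAS5 signal (linear units, axes from 0) of the 3 probe sets on each array, with marker shapes for the replicate numbers and black bars for the mean and SD of 3 arrays. The groups are separate on both Cx3cl1 probe sets (13445 and above against 11610.2 and below; 236.5 and above against 55.5 and below) and overlap for Cx3cr1.

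**Figure D2:**
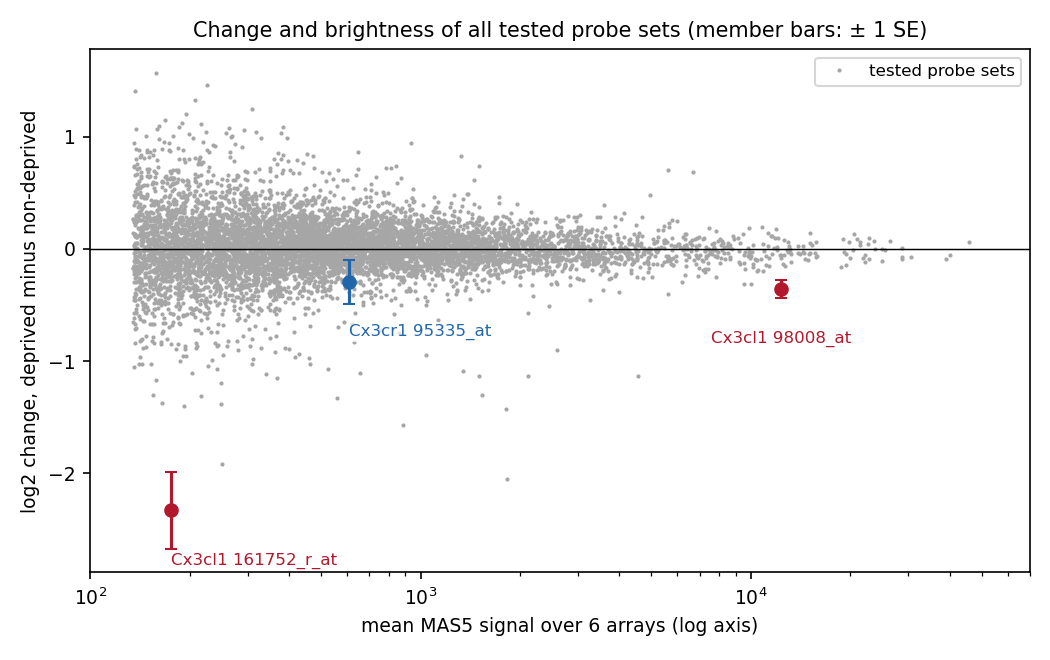
Log2 change (deprived minus non-deprived) against mean signal over 6 arrays (log axis) for the 7453 tested probe sets in grey, with the members in colour and bars of 1 SE. On this scale, with a pseudocount of 16, the dim Cx3cl1 probe set lies lowest at -2.33 (with 64, Fos does), and the bright one lies at -0.36 where the grey points are narrowly spread.

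For Cx3cr1, the non-deprived arrays read 531.1, 755.5 and 719.4 and the deprived arrays 459.9, 691.7 and 483.8. Deprived replicate 2 lay above non-deprived replicate 1, so the groups overlap. The means were 669 ± 120.5 and 545 ± 127.5 (SD, n = 3 each), with a log2 change of -0.29 (SE 0.20). Of 1010 tested probe sets within 1.2-fold of its mean signal, 44, itself included, had a change at least as low. Leaving out deprived replicate 2 moved the change to -0.47, leaving out non-deprived replicate 1 to -0.45, and leaving out deprived replicate 1 to -0.19.

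Cx3cr1 marks microglia, and most other markers of these cells had the opposite sign. Of 10 tested microglia markers, 2 had a lower and 8 a higher mean in deprived cortex, with a median log2 change of 0.06, against 0.01 over all 5653 genes tested. Their summed signal was 7001 to 8148 on non-deprived and 7521 to 8347 on deprived arrays. Relative to their mean log2 signal, Cx3cr1 stood at 0.17 ± 0.40 on non-deprived and -0.20 ± 0.26 on deprived arrays (SD, n = 3), a difference of -0.37. In bulk tissue, fewer cells of a type and less RNA per cell cannot be told apart.

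Among those markers, Csf1r, the receptor for the growth factors that microglia live on, read 990 ± 198 and 1022 ± 83.2 (log2 change 0.06, 95% interval -0.29 to 0.42). Its dimmer probe set had the other sign, -0.105 (SE 0.23). C1qb, a chain of the complement protein C1q, read 736 ± 53.1 and 770 ± 32.7 (0.07, 95% interval -0.21 to 0.34), with 0.02 (SE 0.24) on its dimmer probe set. Ly86, a partner of a Toll-like receptor relative, had a log2 change of -0.32 (SE 0.23), and Spi1, which encodes the myeloid transcription factor PU.1, 0.60 (SE 0.48). Without non-deprived replicate 3, whose 18S control was high, the brighter Csf1r probe set was at -0.11, Spi1 at 0.039 and Ly86 at -0.20. Over all fits without 1 array Spi1 ran from 0.039 to 1.02 and Ly86 from -0.45 to -0.13, the last without deprived replicate 3. Another 7 markers lay under the filter, with mean signals from 17.9 (Ptprc) to 131.6 (Irf8); none was at 0 on any array. Of the defining ones, Aif1 read 48.9 and 38.5 and Itgam 38.7 and 59.6 in non-deprived and deprived means.

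Neurons are the cells that make Cx3cl1. Of 11 tested neuron markers 8 had a lower mean in deprived cortex and 3 a higher one, with a median log2 change of -0.08, and 2 of them, Tubb3 and Nefl, were lower on all deprived arrays, as were 4.59% of all tested probe sets. Their summed signal was 68020 to 69769 on non-deprived and 65524 to 67890 on deprived arrays, separate by a narrow margin. Their mean log2 signal overlapped, with deprived replicate 2 at 12.008 and non-deprived replicate 3 at 12.005. The part of these marker differences in the Cx3cl1 result was not tested. Relative to the mean log2 signal of these markers, the bright Cx3cl1 probe set stood at 1.75 ± 0.03 and 1.44 ± 0.11 (SD, n = 3), a difference of -0.30 against -0.36 without that reference. The synaptic protein gene Snap25 read 20495 ± 551 and 19391 ± 777, and Syt1, the calcium sensor of vesicle release, 3577 ± 835 and 3319 ± 936. Tubb3, a neuronal tubulin, had a log2 change of -0.18 (SE 0.07), the same on its dimmer probe set; both are _f sets, which can share oligonucleotides with related transcripts.

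To place the pair in its pathway, 207 further genes were listed by role. Of these 162 had a probe set and 91 passed the filter. By limma with adjustment over all 7453 probe sets, 0 of the 91 passed (smallest adjusted p = 0.72), where 0.174% of all tested probe sets did; at an unadjusted p under 0.05 there were 5 (4 lower, 1 higher), against 5.09% of all. Means were lower for 42 and higher for 49, with a median log2 change of 0.03, against 2677 lower and 2976 higher and a median of 0.01 over all genes tested. The groups' arrays did not overlap for 15 of the 91, 8 lower and 7 higher, where 4.59% and 5.50% of all tested probe sets were so.

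Proteases and inhibitors that act on fractalkine gave 4 tested genes, 3 with a higher and 1 with a lower mean (median 0.14). Adam10, which sheds fractalkine at rest, read 269 ± 19.9 and 314 ± 21.4 (log2 change 0.21, 95% interval -0.19 to 0.61; adjusted p = 0.97 by limma), and 0.14 (SE 0.24) on its other probe set. Ctss, the microglial protease cathepsin S, which can also cut fractalkine, read 1480.2, 1419.7 and 1500.9 on non-deprived and 1591.8, 1587.7 and 1759.6 on deprived arrays. Its groups did not overlap, but the change of 0.16 (95% interval -0.06 to 0.38) did not pass (adjusted p = 0.97). Timp3, an inhibitor of metalloproteases such as Adam10, had a log2 change of 0.11 (SE 0.20), or -0.08 without deprived replicate 3. Adam17, the inducible sheddase, lay under the filter at 115.6 ± 90.9 and 75.8 ± 62.1, with one array, non-deprived replicate 3, at 219.8.

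Of the integrins that bind fractalkine beside its receptor, 2 of 7 passed the filter. Itgav had a log2 change of -0.10 (SE 0.14) on its brightest probe set, 0.07 without deprived replicate 2, and 0.05 and 0.14 on its other probe sets. Itgb1 had 0.39 (SE 0.19) on one probe set and -0.37 (SE 0.16) on the other, so its probe sets disagree in sign. Itgb3, the partner of Itgav, lay under the filter; it read 47.8, 31.1 and 54.6 on non-deprived and 20.9, 13.2 and 28.9 on deprived arrays, which do not overlap and are not shown to be above background.

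Signalling proteins that act below Cx3cr1, the inhibitory G proteins and the kinases they reach, gave 16 tested genes, 8 lower and 8 higher, with a median of -0.0021 and none with separate groups. Gnai2, an inhibitory G protein α subunit, read 10023 ± 911 and 10253 ± 225 (log2 change 0.04, SE 0.08), with 0.0016 and 0.12 on its other probe sets. Rac1, a GTPase of cell movement, had 0.19 (SE 0.10), the stress kinase Mapk14 0.21 (SE 0.12) and the G protein β subunit Gnb2 -0.15 (SE 0.10). The values of the list ran from -0.21 to 0.28.

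Other chemokines were mostly dim. Of 24 ligands with a probe set 5 passed the filter, with a median change of 0.05. Cxcl12, made in cortex by vessels and some neurons, read 402 ± 43.3 and 326 ± 20.5 with separate groups (log2 change -0.29, SE 0.16, adjusted p = 0.97 by limma), but 0.00086 (SE 0.29) on its second tested probe set and -1.13 (SE 0.52) on one under the filter. Ccl22, the protein-coding gene directly before Cx3cl1 on the chromosome, read 531 ± 120.9 and 685 ± 58.4 (0.38, SE 0.18). Ccl1 had 0.65 (SE 0.34), against -0.30 on a probe set under the filter. Of 17 chemokine receptors 3 passed the filter: Xcr1 at 0.35 (SE 0.22), Ackr2, a scavenging receptor, at -0.29 (SE 0.28), and Ackr1, another one, at 0.11 (SE 0.18). Cxcr4, the receptor for Cxcl12, was at 12.1 and 11.9, under the filter.

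Other signals between neurons and microglia gave 9 tested genes, 3 lower and 6 higher, with a median of 0.05. Cd200, a neuronal surface protein that, like fractalkine, restrains microglia, went the other way from Cx3cl1: it read 463.4, 536.6 and 405 on non-deprived and 623, 543 and 617.8 on deprived arrays. The groups did not overlap, and the change of 0.34 (95% interval -0.0013 to 0.68) did not pass (adjusted p = 0.95 by limma). Csf1, a growth factor of microglia, had 0.32 (SE 0.20), and the receptor kinase Tyro3 -0.13 (SE 0.10), with -0.50 (SE 0.38) on its dimmer probe set.

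A list of cytokines that induce Cx3cl1, their receptors and NF-kB pathway genes gave 9 tested genes, 4 lower and 5 higher, with a median of 0.04. Genes for inhibitors of NF-kB were among the 9, and no cytokine was. The NF-kB subunits Relb and Rela had log2 changes of -0.52 (SE 0.23) and -0.17 (SE 0.11), both with separate groups, and neither passed (adjusted p = 0.95 and 0.97 by limma). Their other probe sets, under the filter, had -0.16 (SE 0.34) and -0.20 (SE 0.36) with overlapping groups. Separate in the other direction were Tnfrsf1b, a receptor for tumour necrosis factor, at 0.44 (SE 0.22), and Ikbkb, a kinase that activates NF-kB, at 0.26 (SE 0.22); Ikbkb is named after its values were seen. The cytokines Tnf (53.0 and 51.7) and Il1b (16.1 and 19.3) lay under the filter.

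Of protein-coding genes near Cx3cl1 on its chromosome, 6 were tested, 4 lower and 2 higher. The closest were Ccl22, directly before it, Coq9, a coenzyme Q gene, at 0.16 (SE 0.19), Arl2bp at -0.08 (SE 0.07) and Polr2c, an RNA polymerase II subunit, at -0.08 (SE 0.15). Kifc3, a kinesin 12 protein-coding genes away, had -0.85 (SE 0.35; adjusted p = 0.95 by limma).

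Markers of other cells had medians of 0.06 for astrocytes (7 tested), 0.10 for oligodendrocytes (6) and -0.16 for endothelium (5). Astrocyte genes included Aldoc at -0.25 (SE 0.10), Slc1a2 at 0.29 (SE 0.31; -0.0043 without non-deprived replicate 3) and Aqp4 at 0.11 (SE 0.12). Aqp4 had -0.08 (SE 0.22) on its dimmer probe set. Oligodendrocyte genes included Sox10 at 0.24 (SE 0.11), Cldn11 at 0.21 (SE 0.16) and Mog at -0.24 (SE 0.22), and endothelial ones Cldn5 at 0.40 (SE 0.19), Slc2a1 at -0.27 (SE 0.19) and Flt1 at -0.16 (SE 0.21). Flt1 had 0.09 (SE 0.34) on a probe set under the filter. Of leukocyte markers only Cd79a, a B cell receptor subunit, passed the filter. It read 134.4, 121.3 and 115.4 on non-deprived and 232.7, 227.1 and 274.1 on deprived arrays (log2 change 0.90, SE 0.25, adjusted p = 0.72 by limma). The other 8 leukocyte markers with a probe set lay under the filter, at mean signals of 29.5 to 103.2.

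**Figure D3:**
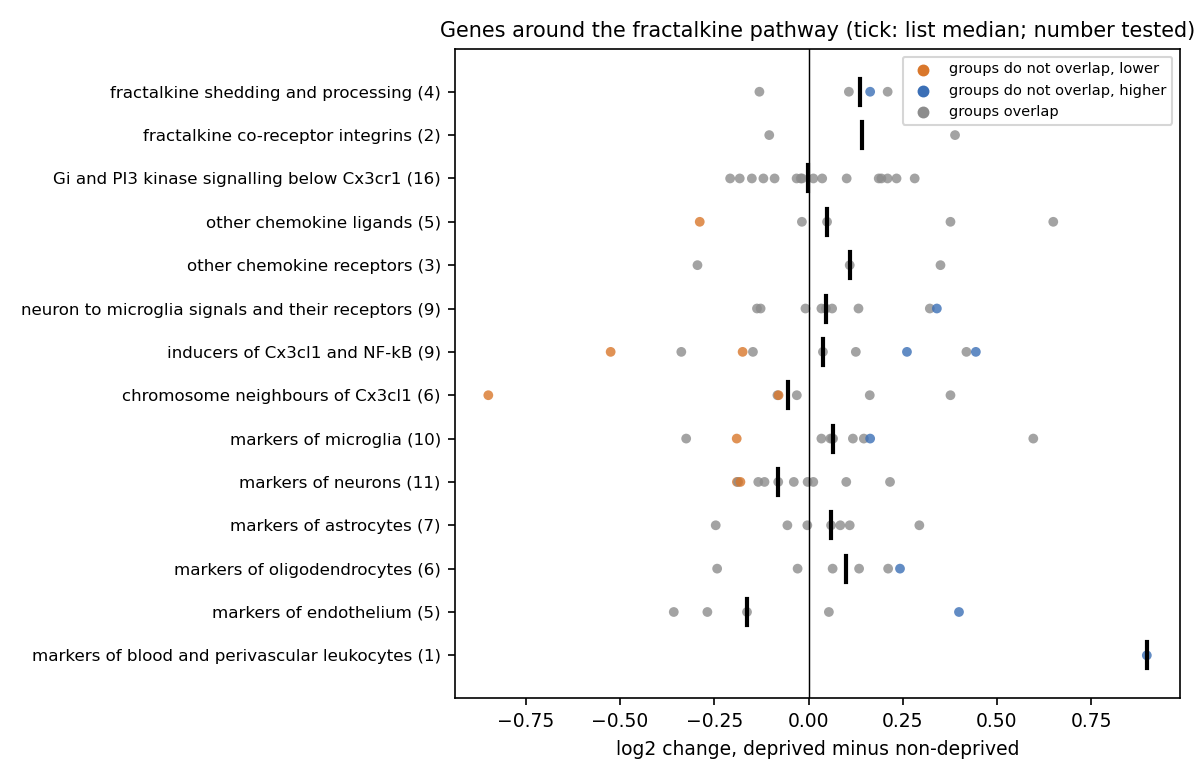
Log2 change (deprived minus non-deprived) of each tested gene by list, 1 point a gene by its brightest probe set; orange and blue points have separate groups of arrays, grey points overlap, and the black tick is the list median. No gene passed limma. Kifc3 is the lowest point at -0.85 and Cd79a the highest at 0.90. Each passed the signal filter only through the group in which it was brighter.

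Probe sets most like each member over the 6 arrays had the smallest root mean square difference from it in log2(signal + 16). Each profile was centred on its own mean. Candidates were those of the 7453 tested that had 1 symbol, of a gene other than the member's. This likeness is a description and says nothing of shared control. The dim Cx3cl1 probe set was picked for its fall, so by this measure its neighbours had to be other probe sets with large falls. For the dim Cx3cl1 probe set the closest was Fos, an immediate-early transcription factor gene (difference 0.28), which read 2946 ± 236 and 703 ± 87.7. Egr2 (0.44), Nr4a1 (0.54) and Junb (0.55), also activity-induced transcription factor genes, and the pseudogene Snrp1c-ps2 (0.62) followed. Their log2 changes, -2.05, -1.57, -1.30, -1.43 and -1.33, stood beside -2.33 for the dim probe set; with a pseudocount of 64, Fos had the larger change, -1.98 against -1.72.

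For the bright Cx3cl1 probe set the closest was Znrf1, a ubiquitin ligase gene (difference 0.04), followed by the transcription factor gene Klf9 (0.04), Slc25a15 (0.05), which encodes a mitochondrial ornithine carrier, Sgce (0.06), which encodes a sarcoglycan, and Klf10 (0.06), another transcription factor gene. Their log2 changes lay between -0.46 and -0.30, all with separate groups. Deprived replicate 1 was the lowest array of each, as it was of Cx3cl1.

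For Cx3cr1 the closest were Zfp777 (0.08), Trpv2 (0.09), a cation channel gene, Psap (0.09), the precursor of lysosomal saposins, Syne4 (0.09) and Prrc1 (0.09). Each had overlapping groups. Their log2 changes ran from -0.42 to -0.18, and deprived replicate 2 stood well above the other deprived arrays in each.

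**Figure D4:**
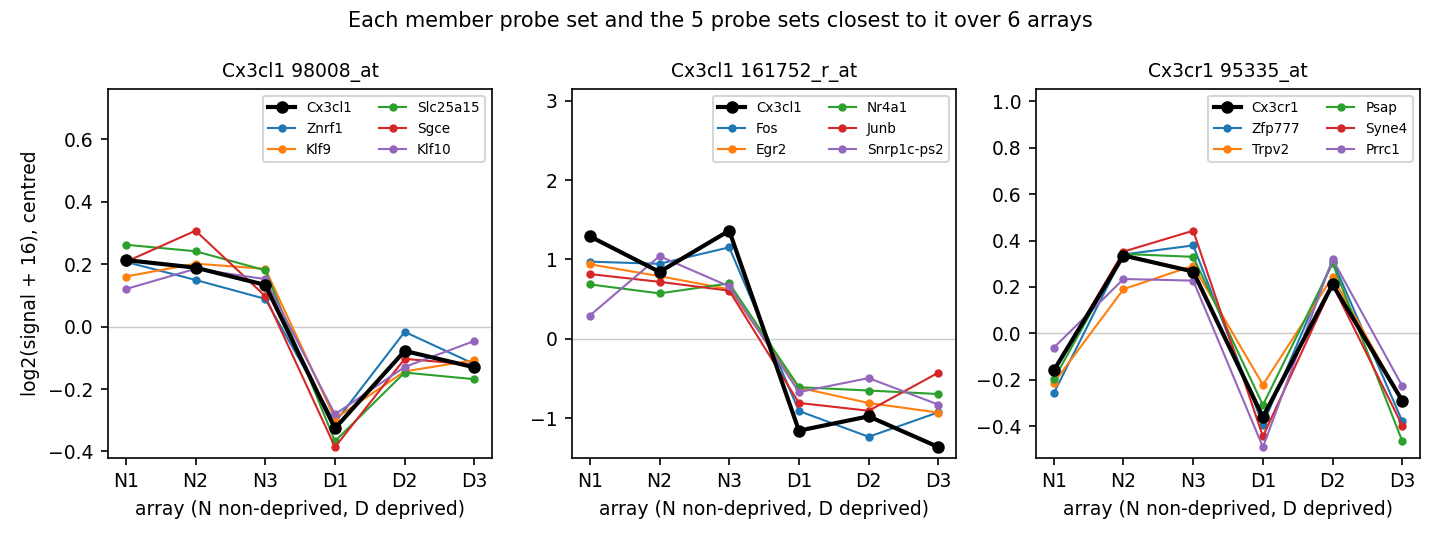
Centred log2(signal + 16) of each member probe set (black) and of the 5 probe sets with the smallest root mean square difference from it, over 3 non-deprived (N1 to N3) and 3 deprived (D1 to D3) arrays; lines only join points of one probe set. The dim Cx3cl1 probe set steps down between groups, as do Fos, Egr2, Nr4a1, Junb and Snrp1c-ps2, but further on this scale. The size of its step depends on the pseudocount, and the vertical scales differ between panels.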

How the data were processed

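The deposited table holds MAS5 signal intensity on a linear scale for 12488 probe sets and 6 arrays; the submitters' processing notes name MAS5 as the tool, and its scaling target is not given in the sources used here. All columns as deposited had a 2% trimmed mean of 500.3, so no further scaling was applied. Detection calls were not used here.

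The 66 control probe sets were set aside. The top 60% by mean signal (7453 probe sets, at least 134.7) were fitted on log2(signal + 16) with limma 3.58.1 in R 4.3.3 (lmFit, eBayes with intensity trend, group as the only term), two-sided, with Benjamini-Hochberg adjustment over all of them. Symbols came from the platform table, with 10839 of 10855 matched by Entrez ID to RefSeq (GRCm38.p6); 396 probe sets with several symbols and 1237 with none stayed unnamed. Each listed gene was taken by its brightest probe set. On simulated data of the same size the fit recovered 51.6% of 2-fold and 88.6% of 4-fold changes.

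The members and lists were chosen with earlier results of these data known. Named were, per list, genes past the threshold and up to 3 with the smallest p; 15 fixed genes; and the 5 probe sets closest to each member. Figures used matplotlib 3.10.9.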

Additional observations from a re-analysis of the deposited data

How the results depend on the processing

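Alternatives were quantile normalization, pseudocounts of 1 and 64, no filter, the top 40% by signal, the linear scale, an eBayes fit with no trend, a 0.10 threshold, probe sets averaged by gene, the replicate number as a block and leaving out each array. All 3 members had a negative change under every alternative that gave a value; the dim Cx3cl1 probe set is not in the top 40%. Over the fits without 1 array the change ran from -0.41 to -0.28 for the bright Cx3cl1 probe set, -2.49 to -2.23 for the dim one and -0.47 to -0.19 for Cx3cr1. Over the other alternatives only the dim probe set moved by more than its replicate spread: -2.66 with a pseudocount of 1, -1.72 with 64 and -2.69 as the log2 ratio of linear means. The count of pathway and context genes past the threshold was 0 under all 15 alternatives. Genes with small changes turned sign in fits without 1 array, with ranges of -0.0047 to 0.11 for Gnai2, -0.0036 to 0.28 for Ackr1, -0.21 to 0.068 for Itgav, -0.0043 to 0.65 for Slc1a2, -0.11 to 0.18 for Csf1r, -0.34 to 0.053 for Syt1 and -0.077 to 0.29 for Timp3. Same-numbered arrays did not deviate together (correlations 0.00, 0.05 and -0.02). Such values cannot show whether same-numbered arrays share mice, so a pairing of the samples by number remains unknown. With the replicate block the changes stayed at -0.36, -2.33 and -0.29 (SE 0.09, 0.40 and 0.15), 0 listed genes passed, and calls over all probe sets went from 13 to 10. Without detection calls, a dim signal cannot be told from background.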

Other observations

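Chemokine genes under the filter were numerous. Of the ligands, 19 had mean signals from 12.4 (Ccl2) to 133.6 (Ccl3), and 2 of these were lower and 2 higher on all deprived arrays; of the receptors, 14 lay at or below 112.7 (Cxcr3), 1 lower and 1 higher. Of all 4969 probe sets under the filter, 6.34% were lower and 3.54% higher in this way. Ccl17, the protein-coding gene directly after Cx3cl1 on the chromosome, read 23.3, 35.3 and 38.8 on non-deprived and 46.1, 42 and 44.3 on deprived arrays, opposite in direction to Cx3cl1. Fcgr3, an Fc receptor of microglia, read 63.1, 58.9 and 29.2 against 117.3, 63.8 and 165.8; it was chosen after its values were seen. None of these signals is shown to be above background, and they were not tested.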
